A study of Mus musculus with 12 samples.

Results

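The 4 genes described here, *Kcnj3*, *Kcnj5*, *Kcnj6* and *Kcnj9*, encode the GIRK family of potassium channel subunits. They were taken by gene symbol as 4 of the 55418 genes counted in the brainstem (medulla and pons) of 12 outbred CFW mice at postnatal day 15. Mice of the saline groups received saline and mice of the morphine groups received morphine at 15 mg/kg, given subcutaneously 2 times per day from P1 through P14, and tissue was taken 16 h after the last injection. There were 3 saline females, 3 morphine-exposed females, 3 saline males and 3 morphine-exposed males, all of the same age and strain. The measurement therefore falls in the period of spontaneous withdrawal, and the labels give no litter for any mouse.

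GIRK channels are G protein-gated, inwardly rectifying potassium channels. When an inhibitory receptor such as the μ opioid receptor is activated, the β and γ subunits of its G protein bind the channel and open it, potassium leaves the cell, and the neuron becomes less excitable. In the brainstem, opioid-evoked GIRK currents are best known from noradrenergic neurons of the locus coeruleus. The functional channel is an assembly of several subunits. *Kcnj3* encodes GIRK1, which needs a partner to reach the cell surface, *Kcnj6* encodes GIRK2, which carries signals for surface delivery and can form channels by itself, *Kcnj9* encodes GIRK3, which steers channels toward endosomes, and *Kcnj5* encodes GIRK4, the partner of GIRK1 in the cardiac atrium and the rarest subunit in most of the brain.

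The libraries held 27850565 to 48097947 counts, and all 4 genes passed the filter on low counts in every comparison. Markers of the hindbrain were present (the glycine transporter *Slc6a5* at a mean of 551.9 CPM, counts scaled to the effective size of the library), whereas the forebrain factors *Emx1* and *Emx2* had means of 0.0439 and 0.0284 CPM. The extraction note in the labels names spinal cord, although the tissue label and the methods of the study give brainstem. The library labelled morphine male 6 went against its sex label in part. *Xist*, the RNA of the inactive X, was at 380.4 CPM, compared with 0.40 to 2.65 in the other 5 males and 550.4 to 978.7 in females. The summed level of Y genes was 53.27 CPM, compared with 226.3 to 394.5 in the other 5 males and at most 1.38 in females. This library was thus between the sexes for both, and the reason was not tested. The male results are also given without it. The libraries also differed in the level of GC-rich relative to GC-poor genes, most of all within the saline males, and the values for this are given with the genes they move with.

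All 4 genes were detected in every mouse, and their levels per length kept a fixed order. On the RPKM scale (CPM per kilobase of exon), *Kcnj3* averaged 14.27 ± 2.44 (SD, n = 12), *Kcnj9* 7.78 ± 1.33, *Kcnj6* 0.82 ± 0.136 and *Kcnj5* 0.40 ± 0.0896. The ranges over mice did not overlap between neighbors in this order, although *Kcnj9* and *Kcnj3* came close: *Kcnj3* ranged from 10.4 to 19.3 and *Kcnj9* from 5.80 to 10.2. *Kcnj6* ranged from 0.615 to 1.02 RPKM and *Kcnj5* from 0.241 to 0.524. *Kcnj3*, *Kcnj9*, *Kcnj6* and *Kcnj5* stood in this order in 12 of 12 mice. When length was taken from the longest protein-coding transcript in place of all exons, a choice made after seeing the data, the order held in 10 mice and *Kcnj9* stood above *Kcnj3* in saline males 1 and 2, and the mean of *Kcnj6* became 1.73. *Kcnj6* is the gene most affected by this choice, since its exons together span 7633 bases and its longest coding transcript 3627 bases.

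As a share of the summed RPKM of the family, *Kcnj3* made up 61.0% ± 7.27 and *Kcnj9* 33.7% ± 7.12 (SD, n = 12), so that the GIRK1 and GIRK3 genes together held most of the family's RNA in this tissue. *Kcnj6* made up 3.56% ± 0.643 and *Kcnj5* 1.73% ± 0.401. *Kcnj3* exceeded *Kcnj6* by a mean RPKM ratio of 17.7, with a range of 12.2 to 27.5 over mice. These shares and this ratio use the length of all exons. With the longest coding transcript, the means were 14.27 for *Kcnj3*, 8.64 for *Kcnj9* and 1.73 for *Kcnj6*. The share of *Kcnj6* is then larger and the ratio smaller. In bulk tissue, a difference in the number of cells that express a gene and a difference in RNA per cell cannot be told apart.

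The depth behind the values differed by the same order. *Kcnj3* was covered by 1936 to 3272 counts per library and *Kcnj9* by 810 to 1965, for which counting error alone was at most 3.51% of the value. *Kcnj6* had 127 to 260 counts, with a counting error of 6.20% to 8.87%, and *Kcnj5* had 48 to 82 counts, with a counting error of 11.0% to 14.4%. Differences of *Kcnj5* between mice were thus the least precise of the 4.

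The genes lie on 4 chromosomes in the GRCm38 annotation (GENCODE M21). *Kcnj3* (ENSMUSG00000026824) spans chr2:55435970-55598145 on the plus strand, and *Kcnj6* (ENSMUSG00000043301) spans chr16:94748636-94997701 on the minus strand. *Kcnj9* (ENSMUSG00000038026) spans chr1:172320501-172329318 and *Kcnj5* (ENSMUSG00000032034) chr9:32314707-32344350, both on the minus strand. *Kcnj6* overlaps the antisense gene *Gm41505*, which had 27 to 101 counts, and *Kcnj9* overlaps the antisense gene *Gm36937*, with 6 to 27 counts. *Kcnj3* overlaps the lincRNA *Gm26794* (13 to 54 counts), and no annotated gene overlaps *Kcnj5*. The strand setting of the counting is not given in the sources used here, so the part of the *Kcnj6* counts that could come from *Gm41505* was not tested.

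The promoters of 3 members are shown because these genes carry the comparisons that follow: *Kcnj6*, the member whose level passed the thresholds in males, and *Kcnj3* and *Kcnj9*, the abundant pair. Each runs from 250 bases before to 50 bases after the annotated RefSeq start (GRCm38.p6), 5′ to 3′ on the strand of the gene. Capitals mark TGACG on either strand, the core of the cAMP response element, and TATAAA on either strand, the sequence of a TATA box wherever it lies. The windows are chr16:94997647-94997946 for *Kcnj6*, chr2:55435720-55436019 for *Kcnj3* and chr1:172329273-172329572 for *Kcnj9*.
Kcnj6: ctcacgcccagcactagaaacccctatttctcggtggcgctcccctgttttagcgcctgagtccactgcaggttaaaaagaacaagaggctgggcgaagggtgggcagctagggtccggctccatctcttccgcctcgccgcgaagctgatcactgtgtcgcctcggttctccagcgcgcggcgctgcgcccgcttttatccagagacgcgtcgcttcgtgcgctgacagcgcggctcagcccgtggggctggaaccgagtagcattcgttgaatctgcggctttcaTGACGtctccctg
Kcnj3: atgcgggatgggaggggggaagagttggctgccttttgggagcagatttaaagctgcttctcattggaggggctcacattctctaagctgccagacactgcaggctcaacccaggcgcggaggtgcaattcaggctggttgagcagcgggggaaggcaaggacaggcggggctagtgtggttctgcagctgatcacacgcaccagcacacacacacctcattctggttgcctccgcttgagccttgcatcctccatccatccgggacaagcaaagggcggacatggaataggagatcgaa
Kcnj9: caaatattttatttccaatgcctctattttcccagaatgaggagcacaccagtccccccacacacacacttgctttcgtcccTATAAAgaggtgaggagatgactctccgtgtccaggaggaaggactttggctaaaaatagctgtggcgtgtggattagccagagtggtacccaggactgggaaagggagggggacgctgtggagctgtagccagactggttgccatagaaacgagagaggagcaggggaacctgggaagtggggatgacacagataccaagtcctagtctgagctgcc

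The *Kcnj6* window held 1 TGACG, starting 38 bases after the start site, 30 CpG dinucleotides and a GC content of 62.0%. The *Kcnj3* window held 10 CpG dinucleotides at 57.7% GC, and the *Kcnj9* window held 5 at 52.3% GC and 1 TATAAA. This TATAAA lay in the upstream part of the window, not next to the start site. The median over all 32851 promoters of the same length was 7 CpG dinucleotides and 52.7% GC. TGACG was absent from the windows of *Kcnj3*, *Kcnj5* and *Kcnj9* and from that of a second, internal *Kcnj6* start, and the full element TGACGTCA was in none of the 5. Across all promoters, 20.8% held TGACG, 1.79% TGACGTCA and 13.6% TATAAA, so a single TGACG is common, and these matches are descriptions of the sequence alone.

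The first comparison was of morphine-exposed with saline mice of both sexes together, with sex in the model. None of the 4 genes passed the thresholds of the study (unadjusted p below 0.05 and a log2 fold change beyond 0.26 in either direction), against 1.19% of the 18608 genes tested. *Kcnj3* ranged from 54.2 to 100.4 CPM in saline mice, with a median of 79.0, and from 63.7 to 78.0 in morphine-exposed mice, with a median of 73.9. *Kcnj9* ranged from 24.9 to 43.6, with a median of 33.5, in saline mice and from 27.5 to 36.7, with a median of 33.1, in morphine-exposed mice. For both genes the values of the morphine-exposed mice lay inside the range of the saline mice.

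*Kcnj6* ranged from 4.99 to 7.28 CPM in saline mice, with a median of 5.83, and from 4.69 to 7.78 in morphine-exposed mice, with a median of 6.84. *Kcnj5* ranged from 1.13 to 2.37, with a median of 1.89, and from 1.39 to 2.45, with a median of 2.02. The groups overlapped for both. The log2 fold change was -0.07 for *Kcnj3* (SE 0.134), 0.11 for *Kcnj5* (SE 0.207), 0.18 for *Kcnj6* (SE 0.146) and -0.06 for *Kcnj9* (SE 0.137), each with an adjusted p of 1 over all genes in edgeR. Exact two-sided permutation tests gave p = 0.771, 0.561, 0.24 and 0.831 in the same order. Groups of 6 and 6 failed to overlap for 0.0376% of the genes tested and for none of these 4. Across all genes, 0 passed an adjusted p below 0.05 in edgeR or in DESeq2, and 246 had an unadjusted p below 0.05 in edgeR.

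**Figure D1:**
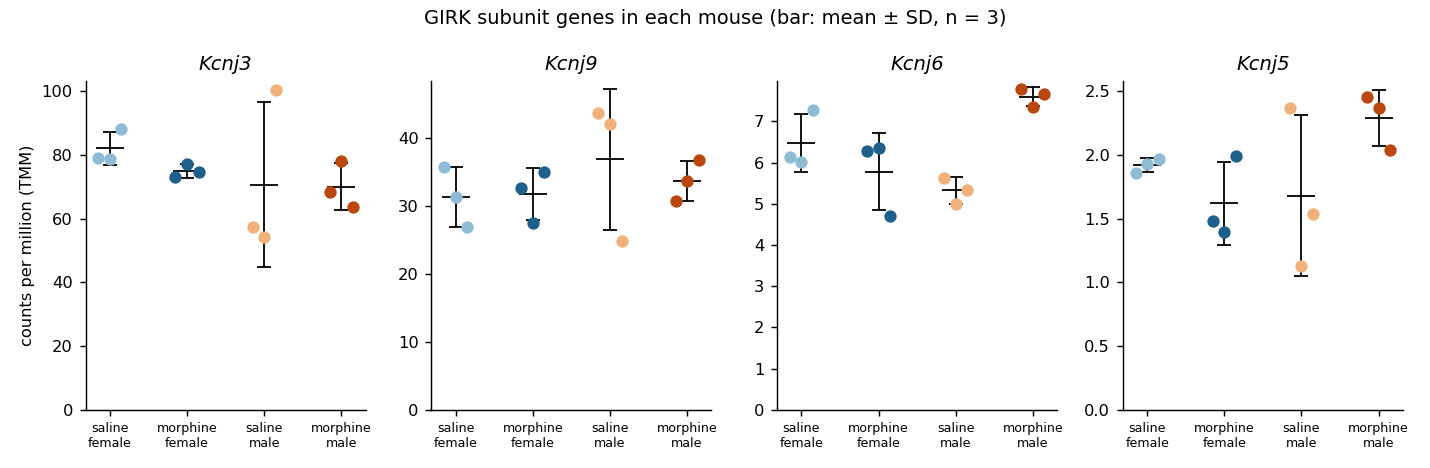
Level of each GIRK subunit gene in CPM (vertical axis, from 0, with its own scale in each panel) for each mouse, in 4 groups of 3 mice; the cross bars are group means and the whiskers are the SD. *Kcnj6* stood at 7.34 to 7.78 in the morphine-exposed males and at 4.99 to 5.63 in the saline males, whereas *Kcnj3* and *Kcnj9* were most spread among the saline males.

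In males, *Kcnj6*, the gene of GIRK2, was higher in the morphine-exposed than in the saline mice. It was at 5.63, 4.99 and 5.34 CPM in saline males 1, 2 and 3 and at 7.78, 7.34 and 7.66 in morphine-exposed males 4, 5 and 6. Every morphine-exposed male was above every saline male, and the gap between the groups was wider than the spread within either. The means were 5.32 ± 0.32 and 7.59 ± 0.229 (SD, n = 3 each), and the log2 fold change was 0.49 (SE 0.163), a 1.40-fold difference, while the median over all genes was -0.06. The unadjusted p was 0.0205 and the adjusted p was 1, so the difference did not hold after correction for all genes. It ranked 193 by p among 18166 genes, of which 2.99% passed the thresholds in either direction and 1.92% upward. Groups of 3 and 3 also failed to overlap for 8.86% of the genes tested, and the exact two-sided permutation test gave 0.1, the smallest p this design allows.

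The male *Kcnj6* difference kept its sign and stayed between 0.44 and 0.61 on the log2 scale in every alternative that was run. It lost the threshold without saline male 2 (0.44, an unadjusted edgeR p of 0.0686), without morphine male 4 (0.47, p of 0.0728) or without morphine male 6 (0.47, p of 0.0702), and with no filter on low counts (0.48, p of 0.0563). Without saline male 3 and morphine male 6 together it was 0.49 (edgeR adjusted p = 0.036), a setting in which 41% of all genes passed the thresholds.

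*Kcnj5*, the gene of GIRK4, was at 2.37, 1.13 and 1.53 CPM in saline males 1, 2 and 3 and at 2.45, 2.37 and 2.04 in morphine-exposed males 4, 5 and 6. The groups overlapped through saline male 1 alone. The log2 fold change was 0.43 (SE 0.304, adjusted p = 1, exact permutation p = 0.3), and without saline male 1 it was 0.75 (an unadjusted p of 0.0354, adjusted p = 1), so that this mouse decided on which side of the threshold *Kcnj5* fell.

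*Kcnj3* was at 57.4, 54.2 and 100.4 CPM in saline males 1, 2 and 3 and at 68.4, 78.0 and 63.7 in morphine-exposed males 4, 5 and 6. *Kcnj9* was at 43.6, 41.9 and 24.9 in the saline males and at 30.7, 33.6 and 36.7 in the morphine-exposed males. The morphine-exposed males fell between the saline males for both genes, and saline male 3 stood apart from saline males 1 and 2 in opposite directions. The log2 fold changes were -0.04 for *Kcnj3* (SE 0.256, exact permutation p = 1) and -0.16 for *Kcnj9* (SE 0.232, exact permutation p = 0.8), with adjusted p of 1 for both.

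These values rested on saline male 3. Without it, *Kcnj3* was higher in morphine-exposed males (0.33, adjusted p = 0.0844) and *Kcnj9* lower (-0.34, adjusted p = 0.0986), in a fit in which 28.6% of all genes passed the thresholds. *Kcnj6* was 0.52 in that fit (adjusted p = 0.0654). Without the library labelled morphine male 6, the male value was 0.49 for *Kcnj5*, 0.01 for *Kcnj3* and -0.23 for *Kcnj9*, none of them past the thresholds.

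In females, none of the 4 genes passed the thresholds, against 1.81% of 18109 genes. *Kcnj6* was at 6.13, 6.02 and 7.28 CPM in saline females 4, 5 and 6 and at 6.28, 6.35 and 4.69 in morphine-exposed females 1, 2 and 3. The groups overlapped, with the highest value in saline female 6 and the lowest in morphine female 3. The log2 fold change was -0.17 (SE 0.175, adjusted p = 1, exact permutation p = 0.6). *Kcnj5* was at 1.86, 1.93 and 1.97 in the saline females and at 1.48, 1.39 and 1.99 in the morphine-exposed females, a log2 fold change of -0.26 (SE 0.242, adjusted p = 1, exact permutation p = 0.4). Morphine female 3 was the highest of the 6 for *Kcnj5* and the lowest for *Kcnj6*.

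*Kcnj3* was the only member whose female groups did not overlap. It was at 79.2, 78.8 and 88.2 CPM in saline females 4, 5 and 6 and at 73.0, 77.2 and 74.7 in morphine-exposed females 1, 2 and 3, so every morphine-exposed female was lower. The difference was small, at -0.14 on the log2 scale (SE 0.0903, adjusted p = 1, exact permutation p = 0.1, the smallest possible), and groups failed to overlap for 5.67% of all genes. *Kcnj9* was at 35.7, 31.3 and 26.8 in the saline females and at 32.5, 27.5 and 35.0 in the morphine-exposed females, with a log2 fold change of 0.01 (SE 0.131, adjusted p = 1, exact permutation p = 0.8) and no visible order between the groups.

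The difference between the sexes' responses was tested as an interaction. For *Kcnj6*, the change in males exceeded the change in females by 0.68 on the log2 scale (SE 0.231, an unadjusted edgeR p of 0.0125, adjusted p = 0.985), ranking 94 by p among 19027 genes, of which 2.94% passed the thresholds in either direction and 1.61% upward. The *Kcnj6* value remained past the thresholds in 12 of 12 fits that left out 1 mouse, with a range of 0.55 to 0.75, and in the 7 other settings tried, with a range of 0.61 to 0.78. The lowest adjusted p over these fits was 0.0975, without saline male 3.

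*Kcnj5* had an interaction of similar size, 0.70, with a larger error (SE 0.379, adjusted p = 0.985), and without saline male 1 it was 1.03 (an unadjusted p of 0.0111, adjusted p = 1). *Kcnj3* (0.12, SE 0.277, adjusted p = 0.988) and *Kcnj9* (-0.15, SE 0.283, adjusted p = 0.985) had differences smaller than their standard errors. Without saline male 3, the *Kcnj3* interaction was 0.43 (adjusted p = 0.0627), and 24.1% of all genes passed the thresholds in that fit.

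**Figure D2:**
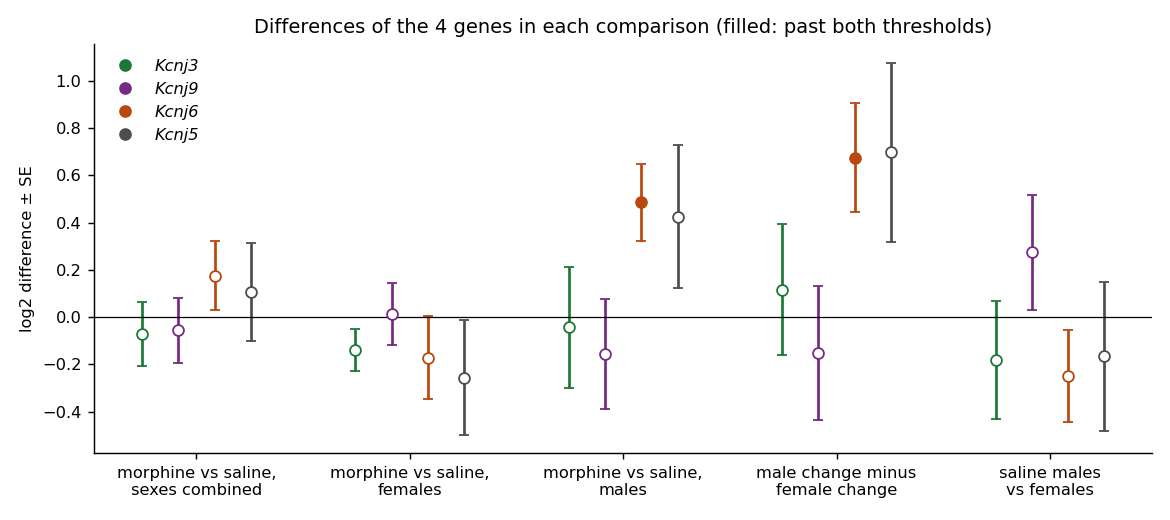
Difference of each GIRK subunit gene on the log2 scale in each of the 5 comparisons (horizontal axis), with its SE; filled points passed both thresholds. Only *Kcnj6* had filled points, at 0.49 in males and 0.68 for the difference between the sexes, and the points of *Kcnj3* and *Kcnj9* lay near 0 for morphine in both sexes.

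**Figure D3:**
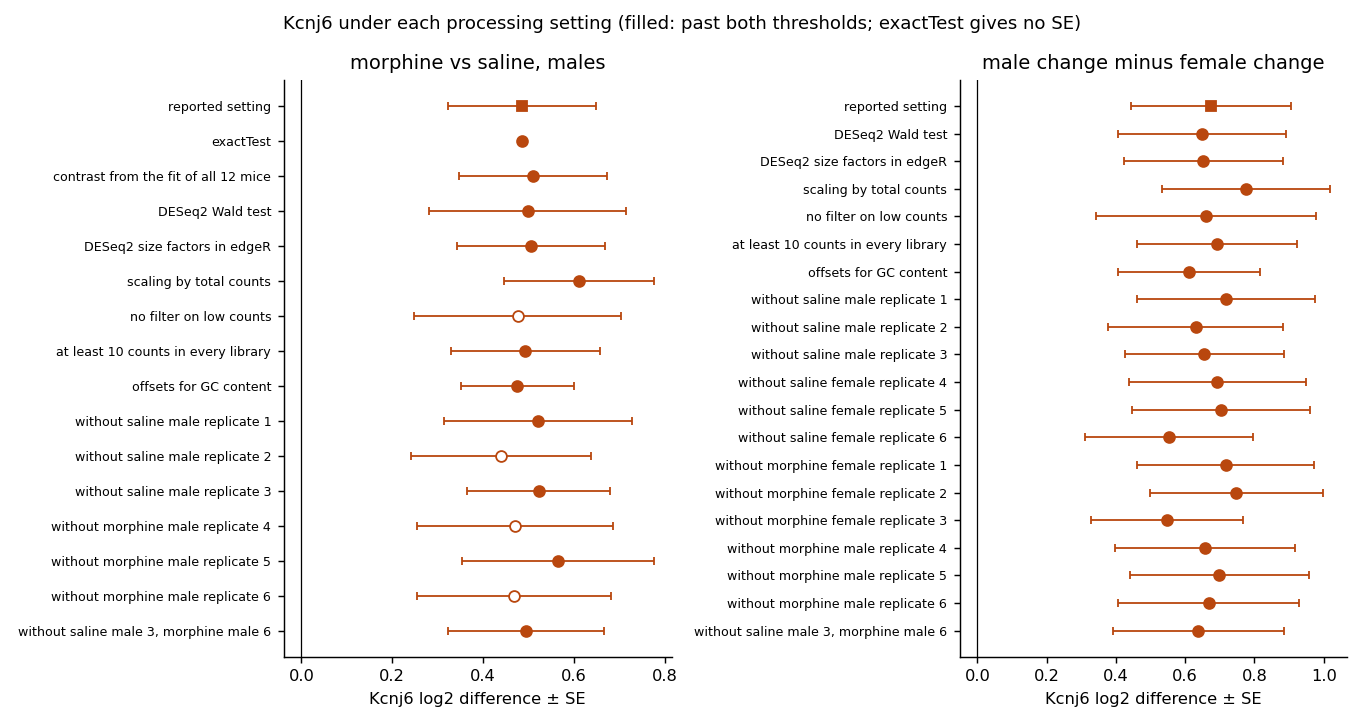
Log2 difference of *Kcnj6* with its SE (horizontal axis) in males (left) and for the male minus female change (right) in each processing setting and without each mouse (vertical axis); filled points passed both thresholds. All points lie to the right of 0, and 4 of the alternatives on the left and 0 on the right are open.

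In saline mice, none of the 4 genes passed the thresholds between the sexes, against 2.47% of 18122 genes. *Kcnj6* was lower in every saline male (4.99 to 5.63 CPM) than in every saline female (6.02 to 7.28), with a log2 difference of males over females of -0.25 (SE 0.195, adjusted p = 0.995, exact permutation p = 0.1, the smallest possible). Groups failed to overlap for 4.3% of all genes in this comparison. The morphine-exposed males, at 7.34 to 7.78, were above the highest saline female.

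*Kcnj9* was 0.27 higher in saline males (SE 0.242, exact permutation p = 0.6), *Kcnj3* was at -0.18 (SE 0.248, exact permutation p = 0.4) and *Kcnj5* at -0.16 (SE 0.315, exact permutation p = 0.5), all with overlapping groups and an adjusted p of 0.998. As in the comparison of males, saline male 3 decided the values of the abundant pair. Without it, *Kcnj3* was -0.52 (adjusted p = 0.00639) and *Kcnj9* was 0.49 (adjusted p = 0.0222), while 37.3% of all genes passed the thresholds.

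The extremes of *Kcnj3* and *Kcnj9* over the 12 mice were opposite to each other, although the 2 genes lay on opposite sides of their own means in 7 of 12 libraries. *Kcnj3* was lowest in saline males 2 and 1 (10.4 and 11.0 RPKM), which held the highest *Kcnj9* (9.78 and 10.2 RPKM), and it was highest in saline male 3 (19.3 RPKM), which held the lowest *Kcnj9* (5.80 RPKM). The mean RPKM ratio of *Kcnj3* to *Kcnj9* was 1.93, with a range from 1.06 in saline male 2 to 3.32 in saline male 3. The sum over the 4 genes varied less than its main parts, with a coefficient of variation of 6.17% against 17.1% for *Kcnj3* and 17.2% for *Kcnj9*. By treatment, the sum was 23.7 ± 1.78 RPKM in saline and 22.8 ± 0.916 in morphine-exposed mice (SD, n = 6 each), with overlapping ranges of 21.1 to 26.1 and 21.8 to 24.3.

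The opposite extremes were in the libraries at the ends of a GC measure. This measure is the median level of the 10% of genes richest in GC minus that of the 10% poorest, each gene centered on its own mean over the 12 libraries. It was 1.20 and 0.929 in saline males 2 and 1, 0.575 in morphine male 6, between -0.669 and 0.0638 in 8 libraries, and -1.18 in saline male 3. *Kcnj3* transcripts are 43.9% GC and *Kcnj9* transcripts 57.2% GC, and neither gene is among those that make up the measure. *Kcnj3* was lowest and *Kcnj9* highest in the 3 libraries with the highest GC measure, and the reverse held in the library with the lowest.

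With offsets for GC content in the model, an alternative added after seeing the data, the standard error in males fell from 0.256 to 0.12 for *Kcnj3* and from 0.232 to 0.14 for *Kcnj9*. The log2 fold changes in males were then 0.0061 for *Kcnj3* and 0.03 for *Kcnj9*, so neither gene kept its sign. *Kcnj6* transcripts are 48.2% GC and *Kcnj5* transcripts 50.2% GC, and their male differences moved little with the offsets, to 0.48 for *Kcnj6* (SE 0.125, an unadjusted p of 0.00561, adjusted p = 0.437) and 0.43 for *Kcnj5* (SE 0.284, adjusted p = 0.644).

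**Figure D4:**
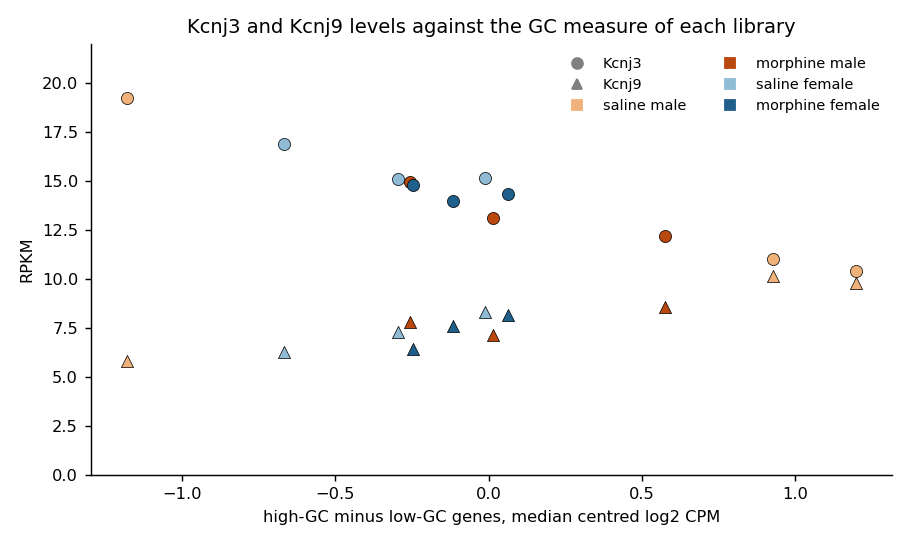
*Kcnj3* (circles) and *Kcnj9* (triangles) in RPKM (vertical axis) against the GC measure of each of the 12 libraries (horizontal axis, log2), colored by group. *Kcnj3* falls from 19.3 to 10.4 and *Kcnj9* goes from 5.80 to 9.78 between the saline males at the ends of the axis, and the morphine-exposed mice lie between them.

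*Kcnj6* showed no such order among the saline males, which spanned the whole range of the GC measure. There *Kcnj6* differed by less than 1 CPM, and its share of the summed RPKM of the family was 3.29%, 3.11% and 2.68% in saline males 1, 2 and 3. Among females, *Kcnj6* was highest in saline female 6 (7.28 CPM), at their lowest GC measure (-0.669). It was lowest in morphine female 3 (4.69 CPM), at their highest GC measure (0.0638). The other females lay between, at 6.02 to 6.35 CPM. In morphine-exposed males 4, 5 and 6 the share was 4.67%, 3.96% and 4.52%, above all saline males. In females it was 3.25% to 3.89% in saline and 2.61% to 3.73% in morphine-exposed mice.

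Cerebellar granule cells express *Kcnj6* strongly, and the cerebellum borders the dissected tissue. Some of their markers also passed the thresholds upward in males. Of 8 granule cell markers, 3 passed the thresholds upward in males, *Gabra6* (1.35, SE 0.46), *Fat2* (0.81, SE 0.166) and *Cbln3* (1.08, SE 0.423), each with an adjusted p of 1, and 0 passed downward. Each of these 3 markers was higher in every morphine-exposed male than in every saline male, as *Kcnj6* was. Over all genes tested in males, 1.92% passed the thresholds upward, and groups failed to overlap for 8.86%. The summed level of the 8 was 151.1, 163.9 and 217.9 CPM in saline males 1, 2 and 3 and 218.3, 266.0 and 173.9 in morphine-exposed males 4, 5 and 6, so the groups overlapped. The largest parts of this sum, *Zic1* and *Etv1* (means of 78.23 and 55.14 CPM), did not pass the thresholds in males (0.24 and -0.06). The sum therefore says little about the 3 markers that passed. Morphine male 6, the library between the sexes for *Xist* and Y genes, had a granule sum inside the range of the saline males and *Kcnj6* at 7.66. Saline male 3 had a sum close to that of morphine male 4 and *Kcnj6* at 5.34. The values of these mice rest on the same sum, so they do not describe the 3 markers that passed. Other marker sums went in both directions in males. The hindbrain and forebrain sums had higher medians in morphine-exposed than in saline males (702.1 against 638.6 CPM and 10.58 against 9.92 CPM), with overlap. Gene by gene, most of these markers went the other way. Of 9 hindbrain markers, 7 were negative in males (median log2 fold change -0.181), while *Slc6a5*, the largest part of the sum, was at 0.13. Of 3 forebrain markers tested, 2 were negative (median -0.195). The neuron, astrocyte and oligodendrocyte sums had lower medians. The summed level of 10 neuron markers was 8106 to 9134 CPM in saline and 7567 to 7830 in morphine-exposed males, and that of 8 astrocyte markers was 7216 to 7561 and 6237 to 6797, both without overlap. The sum of 8 oligodendrocyte markers was 39770 to 60240 and 34660 to 43570, with overlap. Single markers that passed the thresholds downward in males were *Cldn11* (-0.49, SE 0.133) and *Mobp* (-0.42, SE 0.177) of oligodendrocytes and *Gjb6* (-0.36, SE 0.145) of astrocytes, each with an adjusted p of 1. Of all genes tested in males, 1.07% passed downward. The part of these cell types in the *Kcnj6* difference was not tested. In females the granule sum was 171.6 to 211.7 in saline and 177.6 to 190.6 in morphine-exposed mice. For the interaction of treatment and sex, 7 of the 8 granule markers were positive, with a median of 0.357. Of these, *Fat2* passed the thresholds upward (0.89, SE 0.23, an unadjusted edgeR p of 0.00218, adjusted p = 0.985). It ranked 11 by p, ahead of *Kcnj6*. Of 6 markers of midbrain dopamine neurons, another *Kcnj6*-rich population, *Pitx3* and *Foxa2* were at 0 counts in 8 of 12 libraries each. The other 4 were detected in every library, at means of 1.75 CPM for *Slc6a3*, 1.51 for *En1*, 5.85 for *Nr4a2* and 120.2 for *Aldh1a1*, and the summed level of the 6 was 125.3 to 156.7 CPM in saline and 94.0 to 143.5 in morphine-exposed males. *Slc6a3*, the dopamine transporter, passed the thresholds upward in females (1.84, SE 0.752, adjusted p = 1), with 3.84 CPM in morphine female 3 and at most 0.551 in the other females.

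**Figure D5:**
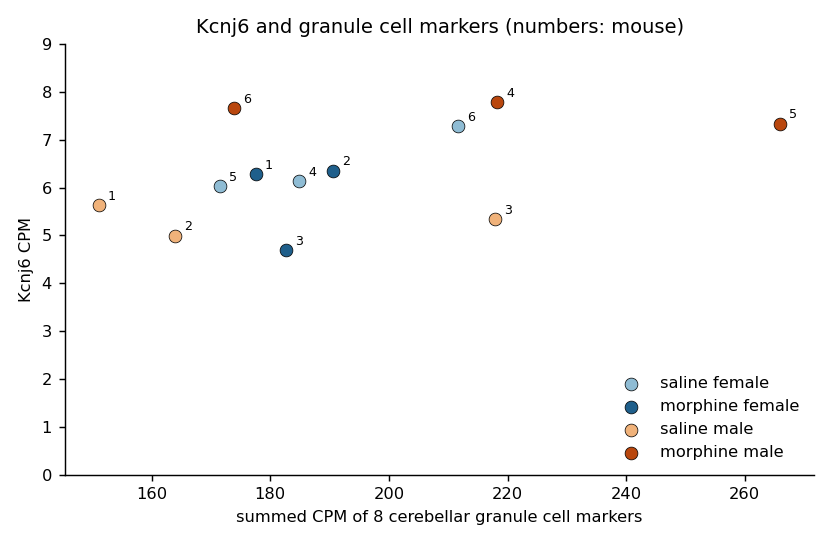
*Kcnj6* in CPM (vertical axis, from 0) against the summed CPM of 8 granule cell markers (horizontal axis) for each of the 12 mice, numbered within treatment and colored by group. The morphine-exposed males lie at 7.34 to 7.78 over granule sums of 173.9 to 266.0, and saline male 3, at a sum of 217.9, lies at 5.34. The largest parts of the sum, *Zic1* and *Etv1*, did not pass the thresholds in males. *Gabra6*, *Fat2* and *Cbln3*, smaller parts of it, were each higher in every morphine-exposed male than in every saline male.

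The genes whose pattern over the 12 libraries was most like that of each subunit differed from member to member. Likeness was measured as the root mean square difference of log2 levels centered on each gene's mean, among 11687 other genes of at least 5 CPM on average (11688 for *Kcnj5*, which is below this level itself). For *Kcnj6* the nearest were *Kirrel* (0.082), *Ercc6* (0.0904) and *Cfap46* (0.0956), against a median of 0.313 over all genes. For *Kcnj3* they were *Fbxo11* (0.0462), *Kpna1* (0.0481) and *Gpr139* (0.0508), and for *Kcnj9* *Adsl* (0.0588), *Psd2* (0.0643) and *Lrrc20* (0.0664). *Kcnj5* had no close neighbor, its nearest being *Wdr60* (0.191), *Ccdc30* (0.226) and *Fmo1* (0.233). Its counting error of 11.0% to 14.4% per library enters each of these distances, so they cannot show whether its pattern is unlike that of other genes.

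These genes were picked as the closest of all, so they are no measure for the likeness between members. The median over all genes is used instead. The difference between *Kcnj3* and *Kcnj9* was 0.459, the largest of the 6 pairs. It was above the medians for *Kcnj3* (0.27) and *Kcnj9* (0.306). The smallest, between *Kcnj5* and *Kcnj6*, was 0.288, below the medians for *Kcnj5* (0.38) and *Kcnj6* (0.313).

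The rest of the pathway was read from 4 lists: other inward rectifier genes, inhibitory receptors known to open GIRK channels, G protein subunits, and regulators of the channel. In males, 0 of 53 tested genes on these lists passed the thresholds, nor did any in females, in the combined comparison or for the interaction. The shares over all genes were 2.99%, 1.81%, 1.19% and 2.94% in the same order. At such shares, lists of this size would hold few passing genes in any case. The median log2 fold change in males was -0.22 over 10 other inward rectifiers, -0.07 over 15 receptors, -0.09 over 13 G protein subunits and -0.03 over 15 regulators, beside -0.06 over all genes. *Kcnj6* at 0.49 was thus above the highest G protein subunit (0.02), receptor (0.30) and regulator (0.22), and below *Kcnj13* among the inward rectifiers.

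Among the other inward rectifiers, the GIRK genes were of intermediate level. *Kcnj10*, the main potassium channel of glia, was at 278.9 ± 25.4 RPKM and its partner *Kcnj16* at 29.5 ± 3.68 (SD, n = 12), both above *Kcnj3*. *Kcnj2* (5.23), *Kcnj11* (4.31) and *Kcnj12* (2.65) lay between *Kcnj9* and *Kcnj6*. *Kcnj1* had 0 counts in 10 of 12 libraries and was not tested. *Kcnj13*, a channel of the choroid plexus epithelium, had the smallest p of this list in males (0.90, SE 0.427) and for the interaction (1.90, SE 0.918). In females *Kcnj12* had it (-0.22, SE 0.146), and over both sexes *Kcnj10* (-0.12, SE 0.0699).

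The μ opioid receptor gene *Oprm1*, through which morphine opens these channels, was at 0.42 ± 0.117 RPKM, close to *Kcnj5*, and the GABA-B receptor gene *Gabbr1* was at 82.3 ± 3.49 (SD, n = 12). Among the receptors the smallest p belonged to *Grm2* in males (-0.60, SE 0.407) and for the interaction (-0.92, SE 0.482), to *Chrm2*, the muscarinic receptor of the cardiac vagal pathway, in females (-0.15, SE 0.0877), and to *Adra2a*, the α2A adrenergic receptor, over both sexes (-0.10, SE 0.0859). Among the G protein subunits it belonged to *Gnaz* in males (-0.35, SE 0.199) and for the interaction (-0.44, SE 0.238), to *Gng7* in females (0.25, SE 0.101, an unadjusted p of 0.0347 but under the fold threshold), and to *Gnai1* over both sexes (-0.11, SE 0.111). Among the regulators it belonged to *Rgs8* in males (0.14, SE 0.112) and over both sexes (0.11, SE 0.0636), to *Rgs4* in females (-0.17, SE 0.0884), and to *Pip5k1c*, which makes the lipid that GIRK channels need to open, for the interaction (-0.59, SE 0.507).

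Between saline males and females, 2 of 53 tested genes of these lists passed the thresholds upward in males, beside 1.91% of all genes. They were the glutamate receptor *Grm2* (1.03, an unadjusted p of 0.0421) and the β subunit *Gnb2* (1.46, an unadjusted p of 0.0498), both with an adjusted p of 0.987. Each passed in 1 of 6 fits that left out a mouse, that without saline male 3. The smallest p of the other lists were those of *Kcnj4* (1.26, SE 0.555) and *Pip5k1c* (0.84, SE 0.438).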

How the data were processed

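Poly-A RNA from 12 mice was sequenced in 100 base single-end reads. According to the methods, the authors used Trimmomatic for quality trimming, STAR for alignment (mm10) and featureCounts for exon reads per gene; versions and strand setting are not given in the sources used here. The deposited values are raw counts per gene. They were tested with edgeR 4.0.16 (TMM, filterByExpr, quasi-likelihood F test), with sex as covariate in the combined comparison; the deposited design text also names dam as a covariate, which the labels do not give. Adjusted p-values are Benjamini-Hochberg values over all genes tested. Levels are TMM-scaled CPM and, divided by kilobases of exon in GENCODE M21, RPKM. The log2 CPM used a prior count of 2. The fits were tested on simulated data. DESeq2 1.42.0 was an alternative. The replicates are separate mice.

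The 4 genes and all lists were chosen with earlier results of these data known. Outside the 4, named genes were those past both thresholds in a list (at most 5) or, with none, its smallest p, and the 3 genes nearest in pattern to each member (mean CPM of at least 5). No protein sequence was used here.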

Additional observations from a re-analysis of the deposited data

Results flagged for a closer look

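The *Kcnj6* change after morphine differed between the sexes by 0.68 on the log2 scale (males minus females, SE 0.231, unadjusted p = 0.0125, adjusted p = 0.985 by edgeR), since the interaction passed both thresholds. The male change was 0.49, with 3 of 3 morphine-exposed males above every saline male, and the female change was -0.17, with overlapping groups. In the 8 groups of 6 mice that were checked for a value far from the rest (each of the 4 genes in saline and in morphine-exposed mice), 0 such values were found.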

How the results depend on the processing

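Of 328 values of the 4 genes under alternatives, 297 kept their direction and their side of the thresholds, 18 changed sign, 9 passed the thresholds only there and 4 no longer did. *Kcnj6* kept its sign in every comparison and alternative; in males it was past the thresholds in 11 of 15, missing with no filter on low counts (0.48) and without saline male 2, morphine male 4 or morphine male 6, and without 1 mouse it ranged from 0.44 to 0.57. With offsets for GC content, *Kcnj9* changed sign to -0.11 in females, 0.032 in males, 0.15 for the interaction and -0.15 in saline mice, and *Kcnj3* to 0.0061 in males. Scaling by total counts turned *Kcnj3* in males to 0.084 and moved the median of all genes there from -0.064 to 0.061. Without saline male 3 and morphine male 6 together (chosen after seeing the data), *Kcnj3* was 0.37 in males and 0.49 for the interaction, and *Kcnj9* -0.43 and -0.47; the cause was not tested.

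Without 1 mouse, *Kcnj3* ranged from -0.15 to 0.054 (the latter without saline male 3) over both sexes, from -0.20 to 0.33 in males (0.012 without morphine male 6), from -0.044 to 0.43 for the interaction (-0.013 without saline male 1) and from -0.52 to -0.056 in saline mice. *Kcnj5* ranged from -0.035 (without saline male 2) to 0.20, 0.20 to 0.75, 0.47 to 1.03 and -0.53 to 0.025 (without saline male 2) in the same order. *Kcnj9* ranged from -0.16 to 0.013 (without saline male 1) over both sexes, from -0.34 to -0.024 in males and from 0.10 to 0.49 in saline mice; in females it ranged from -0.079 to 0.11, with -0.079, -0.0080 and -0.066 without saline female 6, morphine female 1 and morphine female 3.

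The number of genes past both thresholds depended on the setting more than the 4 genes did. Over both sexes it was 221, and 388 with DESeq2, 754 with no filter and 177 (without morphine male 4) to 458 (without saline male 3). In females it was 328, and 218 from the fit of all mice, 1094 with no filter and 208 (without morphine female 1) to 1482 (without saline female 4). In males it was 543, and 985 with no filter, 1310 with GC offsets, 7548 without saline male 3 and morphine male 6 and 253 (without morphine male 4) to 5341 (without saline male 3). For the interaction it was 559, and 1665, 1148, 5952 and 290 (without saline female 6) to 4695 (without saline male 3). In saline mice it was 448, and 826 with exactTest, 1114 with DESeq2, 2047 with no filter and 124 (without saline male 2) to 6966 (without saline male 3). Under scaling by total counts, the share of these genes that were higher went from 64.3% to 91.3% in males, from 54.7% to 81.2% for the interaction, from 51.1% to 72.7% over both sexes and from 77.5% to 61.5% in saline mice; with GC offsets it was 38% in females, against 51.2%.

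With a replicate block and sex in the combined model, *Kcnj6* was 0.17 (SE 0.127, adjusted p = 1), 204 genes passed both thresholds, and no call of the 4 genes changed. Numbers are shared only across sexes and mark no litter; deviations of same-numbered mice correlated between -0.607 and 0.279, so no pairing was used, and within a sex no numbers are shared. Depth limited *Kcnj5* most, with at most 82 counts per library.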
